A study of Mus musculus with 4 samples.

Results

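The genes described here are those of the TGF-beta pathway and of the carriers of its latency-associated peptide (LAP): the ligands Tgfb1 and Tgfb3, the LAP carriers Lrrc32 and Nrp1, the receptors Tgfbr1 and Tgfbr2, and the SMAD genes Smad2, Smad3, Smad4 and Smad7. Every probe set that the platform annotation assigned to one of these symbols alone was taken. Of the 10 genes, 9 had at least 1 probe set, 23 probe sets in all, among 18193 genes that the annotation named alone. The annotation assigned no probe set to Lrrc32, so its transcript was not analysed here.

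The RNA came from CD4+CD25+ T-cells of lymph nodes of C57Bl/6 mice, 6 to 12 weeks old, that had received the CD28 Superagonist D665 (CD28SA) intraperitoneally 3 days earlier. CD28SA is an antibody to the costimulatory receptor CD28 that expands regulatory T-cells (Tregs). Before the sort all cells had been kept over night in medium that held human IL-2 (200 U/ml) and antibodies to CD3 (2 µg/ml) and to CD28 (5 µg/ml), so both groups had been injected and then restimulated. They were then stained for IL-10 and sorted into IL-10+ cells (2 arrays, replicates 1 and 2) and IL-10− cells (2 arrays, replicates 3 and 4). The gate was CD4 and CD25, which activated conventional T-cells also carry, and there were no unstimulated cells among the arrays. The labels do not say whether the 2 samples of a group came from separate mice or sorts, and the p-values therefore reflect no more than the variation among these 4 arrays, part or all of which could be technical.

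TGF-beta is made as a precursor that the protease furin cleaves into the mature cytokine and LAP, which stay bound to each other, and in this latent form the cytokine cannot reach its receptors. Tregs display the latent complex at their surface, bound to GARP, the product of Lrrc32, and neuropilin-1, the product of Nrp1, also binds LAP. Integrins that contain the alpha-v chain release the active cytokine, which joins the type II receptor Tgfbr2 and the type I receptor Tgfbr1. The receptor then phosphorylates SMAD2 and SMAD3, which enter the nucleus with SMAD4, and SMAD7 acts back on the receptor as an inhibitor. In T-cells the pathway is known for the induction of Foxp3 and of the integrin CD103. The comparison thus asked whether transcripts for LAP, its carriers and the signalling chain differed between CD4+CD25+ cells that made IL-10 and those that did not. The flow cytometry for LAP in the study was not analysed here.

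Values were read as log2, 1 per probe set and array. A difference is the mean of the IL-10+ arrays minus the mean of the IL-10− arrays. Differences were tested with limma over all 45037 probe sets, and a probe set passed at an adjusted p under 0.05 (Benjamini-Hochberg). Il10 itself was at 12.02 and 12.00 in the IL-10+ arrays and at 10.41 and 10.37 in the IL-10− arrays, a difference of 1.62 (adjusted p = 7.78e-06), in the direction of the sort. None of the 12 probe sets of the T cell and Treg markers lay below the median of all probe sets, and their mean per array was 11.18 and 11.20 in IL-10+ cells and 10.87 and 10.88 in IL-10− cells. Of the 12, 6 were higher: Cd4 (3.07 and 0.51), Ctla4 (0.87), Ikzf2 at 1421643_at (0.55), Cd3g (0.41) and Il2ra at 1420691_at (0.38). Another 3 were lower, Foxp3 at -0.72 and Ikzf2 at -0.55 and -0.51, so Ikzf2 passed in both directions. Most of the difference between these means came from Cd4 at 1427779_a_at (3.07), and without it the groups' means differed by 0.07 instead of 0.32. Of 6 lists of other cells, that of B and plasma cells differed most, with 6 of 6 probe sets lower in IL-10+ cells (mean per array 6.37 and 6.36 against 7.98 and 7.85). CD8 T cell markers were lower in 4 of 6 probe sets (6.50 and 6.45 against 6.83 and 6.76) and NK cell markers in 3 of 4 (5.95 and 5.92 against 6.37 and 6.40). Myeloid markers were higher in 2 of 9, endothelial ones in 1 of 6, and of 4 platelet probe sets none passed. Transcripts with a poly-A tail that are added to the RNA before labelling gave higher signals in IL-10+ arrays at their 5' probe sets, by 1.22 (median of 4), and in their middle, by 0.82, but differed by 0.04 at the 3' end. The cells' own Gapdh control showed 0.88 at its 5' and 0.02 at its 3' probe set, and beta-actin 1.12 and 0.40. The 3' probe sets of other cellular controls differed more, that of the transferrin receptor by 1.15 and that of 18S ribosomal RNA by -2.18.

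Among the 23 probe sets, 6 were higher in IL-10+ cells, 10 were lower and 7 did not pass. Over all probe sets of the array 13.6% were higher and 16.2% lower. At 8 of the 23 both IL-10+ values lay above both IL-10− values, at 13 below, and at 2 the groups overlapped. Over all 45037 probe sets the numbers were 14629 above, 13733 below and 16675 with overlap. Groups that do not overlap were thus common on these arrays, and that alone sets no gene apart. None of the 23 passed the stricter threshold of the study's methods, a change of 2-fold or more at an adjusted p under 0.001, which 1.72% of all probe sets passed as higher and 0.575% as lower. This count and the fold changes given below rest on the log base. The values were read as log2 from their range, whereas the study's own plot of array differences is labelled as natural logs. Read as natural logs, 4 of the 23 would pass, 1 of Nrp1 (1457198_at), both higher ones of Tgfbr1 and 1 of Smad3 (1454960_at). The median difference of the 23 was -0.10, against 0.01 for all probe sets. All 4 Nrp1 probe sets were lower, Tgfb1 had 1 higher probe set and none lower, Tgfbr1, Tgfbr2, Smad3 and Smad4 each had probe sets that passed in both directions, Smad7 had 1 lower probe set, and no probe set of Tgfb3 or Smad2 passed. In bulk samples like these, fewer cells of a type and less RNA per cell cannot be told apart.

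**Figure D1:**
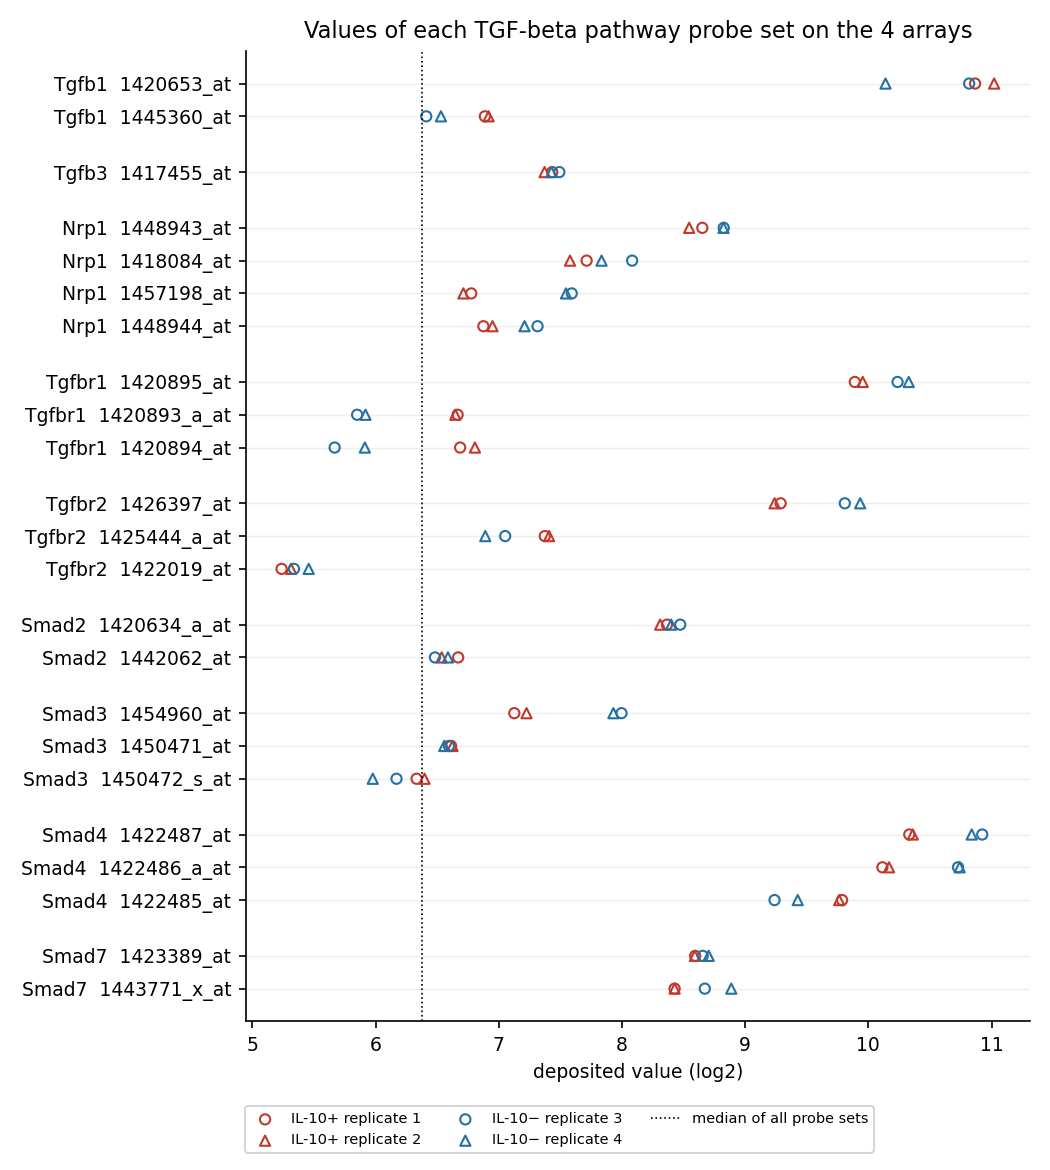
Deposited values (log2, horizontal axis) of the 23 probe sets on the 4 arrays, 1 row per probe set grouped by gene, with IL-10+ replicates in red, IL-10− replicates in blue and the median of all probe sets as a dotted line. The IL-10+ points of all 4 Nrp1 rows lie left of the IL-10− points, whereas those of Tgfbr1, Tgfbr2, Smad3 and Smad4 lie left in some rows and right in others. Positions are comparable within a row only, since probe sets differ in how brightly they hybridise.

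Tgfb1 encodes the main TGF-beta of lymphocytes together with its LAP. Its probe set 1420653_at was at 10.87 and 11.02 in IL-10+ cells and at 10.82 and 10.14 in IL-10− cells. The groups did not overlap, but IL-10− replicate 3 lay close to the IL-10+ arrays and the IL-10− values differed from each other by more than the IL-10+ values did (SD 0.48 against 0.11). The difference of 0.46 ± 0.19 (SE) did not pass (adjusted p = 0.114, with an unadjusted 95% interval of 0.02 to 0.91). The size rested on the IL-10− arrays: without IL-10− replicate 3 the difference was 0.80 and passed (adjusted p = 6.47e-06), and without IL-10− replicate 4 it was 0.13 and did not pass (adjusted p = 0.314). The other probe set of the gene, 1445360_at, was at 6.89 and 6.92 in IL-10+ cells and at 6.41 and 6.53 in IL-10− cells. It was higher in IL-10+ cells by 0.43 ± 0.07 (SE; adjusted p = 0.00259), which is 1.35-fold. The mean of both probe sets was higher by 0.45 (adjusted p = 0.00920).

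The 250 bases before the annotated start of Tgfb1 (RefSeq, GRCm38.p6, chr7:25686752-25687001, plus strand, ending at the base before its first exon) are shown since Tgfb1 is the source of LAP, with GC boxes, the GGGCGG or CCGCCC letters bound by Sp1-type factors, in capitals:
Tgfb1: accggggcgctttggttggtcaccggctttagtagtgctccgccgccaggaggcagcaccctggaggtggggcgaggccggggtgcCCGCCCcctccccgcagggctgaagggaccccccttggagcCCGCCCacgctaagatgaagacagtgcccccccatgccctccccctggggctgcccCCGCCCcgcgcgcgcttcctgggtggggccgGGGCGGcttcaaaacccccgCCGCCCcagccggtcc
The window holds 5 GC boxes, and 32.7% of the 32851 promoter windows of this length in the same table hold at least 1. It holds no SMAD box, the letters CAGAC or GTCTG that SMAD proteins can bind (42.2% of all windows), and no AP-1 motif, TGANTCA (6.75% of all windows), on either strand. These are matches of letters, with no measurement of binding.

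Tgfb3, a second ligand that some helper T-cells make, was at 7.43 and 7.37 in IL-10+ cells and at 7.49 and 7.43 in IL-10− cells. The groups overlapped, and the difference of -0.06 ± 0.07 (SE) did not pass (adjusted p = 0.596). Its 95% interval ran from -0.21 to 0.10.

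Nrp1, a coreceptor of semaphorins and VEGF that also binds LAP and is carried by many thymus-derived Tregs, was lower in IL-10+ cells in all 4 of its probe sets. At 1457198_at the values were 6.78 and 6.71 in IL-10+ cells and 7.59 and 7.55 in IL-10− cells. The gap between the groups was several times the spread within either, and the difference of -0.82 ± 0.06 (SE; adjusted p = 0.000103) was the furthest below 0 among the 23 probe sets. At 1448944_at the values were 6.88 and 6.95 against 7.31 and 7.21, a difference of -0.35 (adjusted p = 0.00728). At 1418084_at they were 7.71 and 7.58 against 8.08 and 7.83, a difference of -0.31 (adjusted p = 0.0435). At 1448943_at they were 8.65 and 8.55 against 8.83 and 8.82, a difference of -0.23 (adjusted p = 0.0392). The groups did not overlap at any of the 4, which held for most probe sets of the array too. The mean over the 4 differed by -0.43 (adjusted p = 0.00134). Without IL-10+ replicate 1 the last 3 did not pass (adjusted p = 0.0654, 0.0596 and 0.0825, in the order given), and without IL-10+ replicate 2 neither 1418084_at (adjusted p = 0.222) nor 1448943_at (0.292) passed. Without IL-10− replicate 3, 1418084_at did not pass (adjusted p = 0.0988), whereas 1457198_at passed under every alternative run. B and plasma cell, CD8 T cell and NK cell markers moved the same way as Nrp1, with the values given above. Among the 12 probe sets of T cell and Treg markers, Foxp3 (-0.72) and Ikzf2 (-0.55 and -0.51) did so too, whereas 6 were higher, 1 of Ikzf2 among them. The part of a different mix of cells in the Nrp1 result was not tested.

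**Figure D2:**
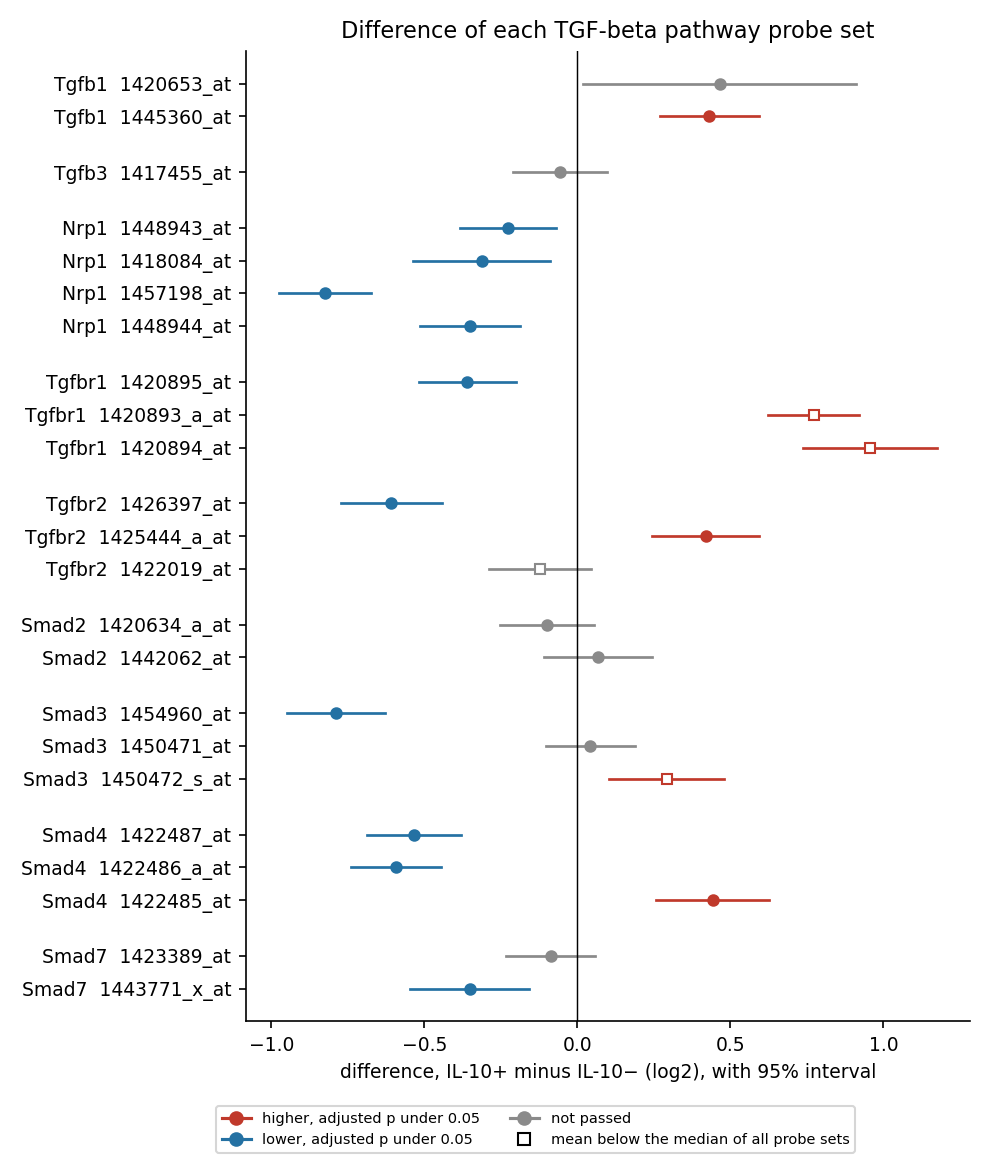
Difference between groups (IL-10+ minus IL-10−, log2, horizontal axis) for the 23 probe sets, with 95% intervals of the fit as bars and colours for higher, lower and not passed at an adjusted p under 0.05. The 4 Nrp1 intervals lie left of 0, between -0.82 and -0.23 at their centres, and squares mark the 4 probe sets whose mean lay below the median of all probe sets, 3 of them higher.

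Tgfbr1, the type I receptor kinase, was measured by 3 probe sets that passed in both directions. At 1420895_at the values were 9.89 and 9.95 in IL-10+ cells and 10.24 and 10.33 in IL-10− cells, a difference of -0.36 ± 0.07 (SE; adjusted p = 0.00547), which did not pass without IL-10+ replicate 1 (adjusted p = 0.0522). At 1420894_at they were 6.69 and 6.81 against 5.67 and 5.91, a difference of 0.96 ± 0.09 (SE; adjusted p = 0.000267), the furthest above 0 among the 23 and 1.94-fold. At 1420893_a_at they were 6.67 and 6.65 against 5.85 and 5.92, a difference of 0.77 (adjusted p = 0.000130). The groups did not overlap at any of the 3, as at most probe sets of the array. The gene was lower by 1 probe set and higher by the other 2, both of which had means below the median of all probe sets. The mean over the 3 was higher by 0.46 (adjusted p = 0.00143), the reverse of 1420895_at alone.

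Tgfbr2, the type II receptor that binds the ligand first, was lower at 1426397_at, with 9.29 and 9.24 in IL-10+ cells and 9.81 and 9.93 in IL-10− cells, a difference of -0.61 ± 0.07 (SE; adjusted p = 0.000568). At 1425444_a_at the values were 7.37 and 7.41 against 7.05 and 6.89, a difference of 0.42 ± 0.07 (SE; adjusted p = 0.00425). At 1422019_at, below the median of all probe sets, they were 5.24 and 5.31 against 5.34 and 5.46, and the difference of -0.12 did not pass (adjusted p = 0.265). The groups did not overlap at any of the 3 probe sets, which held for most probe sets of the array too. Of the 3, 1426397_at and 1425444_a_at passed in opposite directions. Their mean differed by -0.10 and did not pass (adjusted p = 0.166). The window before the start of Tgfbr2 (GRCm38.p6, chr9:116175364-116175613, minus strand) is shown because it alone of the 4 windows at a gene start holds a SMAD box, in capitals:
Tgfbr2: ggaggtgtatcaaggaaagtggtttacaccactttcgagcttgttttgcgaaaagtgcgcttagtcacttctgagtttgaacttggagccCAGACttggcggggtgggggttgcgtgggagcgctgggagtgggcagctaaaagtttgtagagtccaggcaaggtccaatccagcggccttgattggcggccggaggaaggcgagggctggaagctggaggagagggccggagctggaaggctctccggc
It holds 1 SMAD box and no GC box. The other 3 windows, those of Tgfb1, Tgfbr1 and Smad3, hold GC boxes and no SMAD box. A further Tgfbr1 window, away from the annotated gene start, also holds 1 SMAD box, and one of Nrp1, likewise away from it, holds none. Windows of Tgfb3, Lrrc32, Smad2, Smad4 and Smad7 were not searched. Since 42.2% of all windows hold a SMAD box, its presence does not set Tgfbr2 apart.

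Smad2 and Smad3 encode the SMAD proteins that the receptor phosphorylates. Smad2 was at 8.37 and 8.31 against 8.47 and 8.40 at 1420634_a_at (difference -0.10, adjusted p = 0.329) and at 6.67 and 6.54 against 6.48 and 6.59 at 1442062_at (0.07, adjusted p = 0.573). Neither passed, and at 1442062_at the groups overlapped. Smad3 was lower at 1454960_at, with 7.13 and 7.23 in IL-10+ cells and 7.997 and 7.931 in IL-10− cells, a difference of -0.79 ± 0.07 (SE; adjusted p = 0.000163). Among the 23 probe sets only that of Nrp1 named above lay further below 0. At 1450472_s_at the values were 6.33 and 6.40 against 6.17 and 5.98, a difference of 0.29 (adjusted p = 0.0300). This call did not pass without IL-10+ replicate 1 (adjusted p = 0.0815), without replicate 2 (0.161) or without IL-10− replicate 4 (0.0765), and the suffix of this probe set marks probes that can match more than one transcript. At 1450471_at the values were 6.61 and 6.62 against 6.59 and 6.56, and the difference of 0.04 did not pass (adjusted p = 0.680). The mean over the 3 differed by -0.15 and did not pass (adjusted p = 0.0897). The window before the start of Smad3 (GRCm38.p6, chr9:63757995-63758244, minus strand) is shown beside that of Tgfbr2, the other gene on this chromosome that was lower at its highest probe set, with its 2 GC boxes in capitals:
Smad3: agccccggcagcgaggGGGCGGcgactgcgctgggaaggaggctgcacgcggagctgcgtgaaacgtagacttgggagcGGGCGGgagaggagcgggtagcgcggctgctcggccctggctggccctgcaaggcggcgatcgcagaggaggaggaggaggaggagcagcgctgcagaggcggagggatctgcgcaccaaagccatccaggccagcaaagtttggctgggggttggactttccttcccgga

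Smad4, the partner shared by the TGF-beta and BMP branches, was lower at a pair of probe sets and higher at the third. At 1422486_a_at the values were 10.11 and 10.17 in IL-10+ cells and 10.73 and 10.74 in IL-10− cells, a difference of -0.59 ± 0.06 (SE; adjusted p = 0.000377). At 1422487_at they were 10.33 and 10.36 against 10.92 and 10.84, a difference of -0.54 ± 0.07 (SE; adjusted p = 0.000737). At 1422485_at they were 9.79 and 9.76 against 9.24 and 9.43, a difference of 0.44 ± 0.08 (SE; adjusted p = 0.00419). The groups did not overlap at any of them, as at most probe sets of the array. None lay below the median of all probe sets, and all 3 calls were kept under every alternative that treats probe sets singly. The mean over the 3 differed by -0.23 and passed as lower (adjusted p = 0.0116).

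Smad7, the inhibitory SMAD and itself a target of the pathway, was at 8.43 in both IL-10+ arrays and at 8.67 and 8.89 in IL-10− cells at 1443771_x_at. The difference of -0.35 ± 0.08 (SE; adjusted p = 0.0151) passed, but not without either IL-10+ array (adjusted p = 0.0666 in both cases), and the suffix marks probes that can cross-hybridise. At 1423389_at the values were 8.59 in both IL-10+ arrays and 8.66 and 8.70 in IL-10− cells. The groups did not overlap, but the difference of -0.09 did not pass (adjusted p = 0.367). The mean of both probe sets differed by -0.22 and passed as lower (adjusted p = 0.0291).

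Probe sets of 1 gene thus passed in both directions for Tgfbr1, Tgfbr2, Smad3 and Smad4, 4 of the 8 genes with several probe sets. Over the array, 1078 of 9010 such genes (12.0%) had calls in both directions. When each of the 9 genes was represented by its probe set of highest mean value, 5 were lower (Nrp1, Tgfbr1, Tgfbr2, Smad3 and Smad4), 0 were higher and 4 did not pass, with a median difference of -0.23. Over all 18193 genes that choice gave 1523 higher and 4174 lower. The other 14 probe sets of the members held all 6 higher calls, 5 lower calls and 3 that did not pass, with a median of 0.06. Of the 4 member probe sets below the median of all, 3 were higher and none lower, and of the 19 above it, 3 were higher and 10 lower. On the whole array 6.33% of the probe sets below the median were higher and 2.62% lower, and of those at or above it 20.9% were higher and 29.8% lower. The 5' probe sets of the added transcripts were higher in the same IL-10+ arrays (above). Where on a transcript each member's probe sets lie was not analysed here, and the part of the 5' signal in these opposite calls was not tested.

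**Figure D3:**
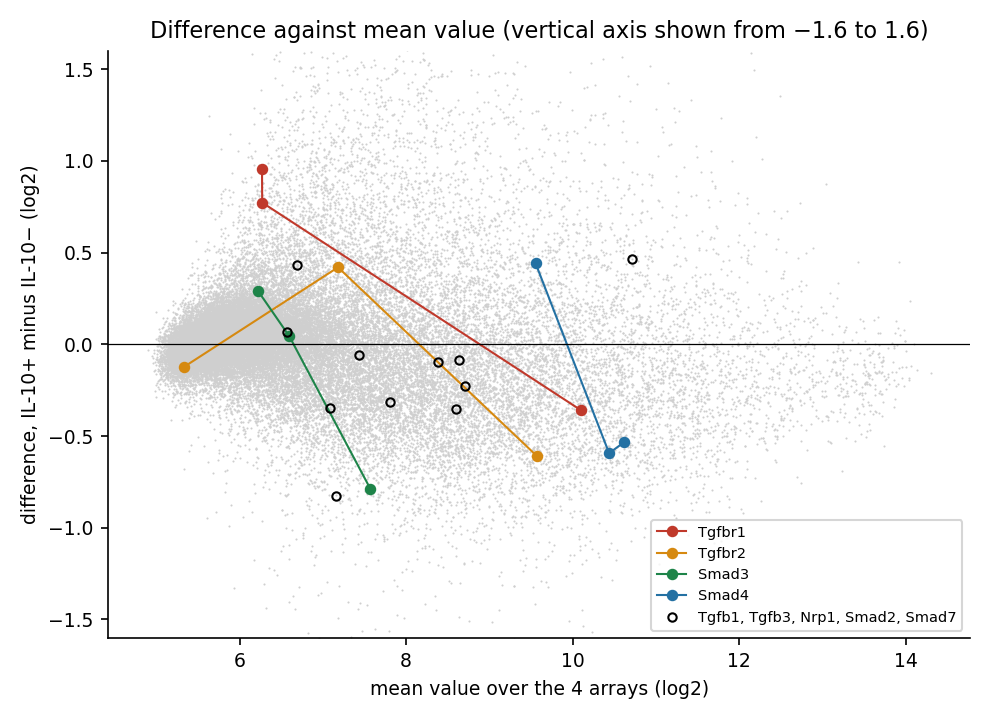
Difference between groups (IL-10+ minus IL-10−, log2, vertical axis) against the mean value over the 4 arrays (log2, horizontal axis), with all probe sets in grey and probe sets of 1 gene joined by a line in order of mean value. The vertical axis is limited to 1.6 in either direction, and 266 of the 45037 probe sets lie outside it. In Tgfbr1, Tgfbr2, Smad3 and Smad4 the line crosses 0, and Tgfb1, Tgfb3, Nrp1, Smad2 and Smad7 are drawn as open circles.

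The rest of the pathway was described through 5 lists, in which 52 genes were measured by 143 probe sets. Of these 24 were higher, 27 lower and 92 did not pass, at a median difference of -0.03 (background 13.6% higher and 16.2% lower). After each array was centred on its median the split was 14 higher and 40 lower, and that of the whole array moved from 6133 higher and 7307 lower to 4668 higher and 10076 lower. In 7 of the genes probe sets passed in both directions. Over the array 12.0% of the genes with several probe sets had such calls, and how many of the 52 have several was not counted. Only 2 probe sets passed the threshold of the methods, both of them of Itgav.

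In the list of ligands and activation (13 genes, 30 probe sets), 3 probe sets were higher and 2 lower (background 13.6% and 16.2%). Itgav encodes the alpha-v integrin chain that pulls on LAP. It was at 9.10 and 9.22 in IL-10+ cells and at 7.88 and 7.90 in IL-10− cells at 1421198_at, a difference of 1.27 (adjusted p = 2.61e-05). Its probe set 1432296_a_at was higher by 1.09 (adjusted p = 0.000119). The others of the gene did not pass, among them its brightest, 1452784_at, at 0.27 (adjusted p = 0.149). Where on the transcript these probe sets lie was not analysed here. The part of the higher 5' signal of the added transcripts (above) in the Itgav differences was not tested. Itgb8, the beta chain with which alpha-v activates TGF-beta on Tregs, went the other way. It was at 7.82 and 7.90 against 8.69 and 8.80 at its single probe set 1436223_at, a difference of -0.88 (adjusted p = 0.000115). Nrros, which tethers latent TGF-beta on myeloid cells in the manner of GARP, was lower (-0.67, adjusted p = 0.000233). Inhba, the activin A chain, was higher at 1422053_at by 0.27 (adjusted p = 0.0248), and its other probe set was at -0.05 and did not pass (adjusted p = 0.611). The groups of Itgav and of Itgb8 did not overlap at the probe sets that passed, as at most probe sets of the array. Furin, which cleaves the precursor, differed by -0.05 (adjusted p = 0.682), and the 4 probe sets of Tgfb2, all below the median, did not pass.

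Receptors and co-receptors (12 genes, 32 probe sets) had 6 higher and 3 lower probe sets (background 13.6% and 16.2%). Acvrl1, a type I receptor best known from endothelium, was higher at 1451604_a_at by 0.57 (adjusted p = 0.00106). Its other probe set was at 0.17 and did not pass (adjusted p = 0.286). Acvr1, Zfyve9 and Bmpr2 were higher by 0.24 or 0.25. For Bmpr2 this was 1419616_at, and its brighter probe set 1434310_at was at -0.18 and did not pass (adjusted p = 0.118). Tgfbr3, the co-receptor betaglycan, was at 6.86 and 6.80 in IL-10+ cells and at 7.34 and 7.52 in IL-10− cells, a difference of -0.60 (adjusted p = 0.00101). The other Tgfbr3 probe set was at 0.15 and did not pass (adjusted p = 0.144). Acvr1b was lower at 1433725_at (-0.25), whereas its other probe set was at 0.25 and did not pass (adjusted p = 0.0587). Bmpr1a was lower at 1425492_at (-0.22), and its other probe sets, between -0.18 and 0.22, did not pass. Of the endothelial markers Pecam1 was the one that was higher, by 0.69, and Cdh5, Kdr, Tek and Emcn did not pass.

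SMAD partners and regulators (19 genes, 58 probe sets) held 11 higher and 16 lower probe sets (background 13.6% and 16.2%). Pmepa1, a target that holds SMAD signalling in check, was lower at all 3 of its probe sets (-0.58, -0.50 and -0.49). At 1422706_at it was at 9.02 and 9.08 in IL-10+ cells and at 9.66 and 9.60 in IL-10− cells (adjusted p = 0.000511). The corepressor Ski was lower at 1426373_at (-0.77, adjusted p = 0.000137), whereas its other probe set 1429192_at was at 0.05 and did not pass (adjusted p = 0.621). The acetyltransferase Crebbp was lower at 1434633_at (-0.81, adjusted p = 9.37e-05), although another Crebbp probe set, below the median, was higher by 0.31. The related corepressor Skil was higher at 1422054_a_at (0.66, adjusted p = 0.000291) and lower at 1452214_at (-0.43, adjusted p = 0.00943). The ubiquitin ligase Smurf2 and the phosphatase Ppm1a also passed in both directions. Smad1, a SMAD of the BMP branch, was lower at 2 probe sets (-0.43 and -0.42), and its remaining one was at -0.08 and did not pass (adjusted p = 0.465). The corepressor Tgif2 was higher at 1431115_at (0.39), whereas its brighter probe set 1434400_at was at -0.21 and did not pass (adjusted p = 0.0774).

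In the SMAD-independent arm (4 genes, 15 probe sets) 4 probe sets were higher and 3 lower (background 13.6% and 16.2%). Traf6, a ubiquitin ligase, was higher at 2 probe sets (0.48 and 0.41) and lower at 1 (-0.55). Its substrate kinase Map3k7 was higher at 1 (0.42) and lower at 2 (-0.57 and -0.36). The adaptor Tab2 was higher at 1451003_at (0.45), whereas its brighter probe set 1423462_at was at -0.20 and did not pass (adjusted p = 0.242). Of the TGF-beta target genes (4 genes, 8 probe sets) 3 probe sets were lower and 0 higher (background 13.6% higher and 16.2% lower). Foxp3 was at 10.86 and 10.79 in IL-10+ cells and at 11.54 and 11.55 in IL-10− cells, a difference of -0.72 (adjusted p = 0.000174). Itgae, the CD103 chain, was at 10.84 and 10.76 against 11.28 and 11.44 at 1447541_s_at, a difference of -0.56 (adjusted p = 0.00117), and at -0.44 at 1449216_at (adjusted p = 0.00203). Both genes thus had groups that did not overlap, as did most probe sets of the array. The study's flow cytometry after CD28SA found a higher fraction of CD103+ cells among IL-10+ than among IL-10− Foxp3+ cells, the reverse of Itgae here. The study also saw this fraction fall at first among IL-10+ Foxp3+ cells after CD28SA. It held a delay of CD103 behind IL-10 to be the likely reason. The flow cytometry measured surface protein on Foxp3+ cells, whereas the arrays measured RNA of CD4+CD25+ cells after an overnight culture. The reason for the difference between Itgae and the flow cytometry was not tested. The single Cdkn2b probe set (-0.08, adjusted p = 0.480) and the 4 of Tgfbi, all below the median, did not pass.

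**Figure D4:**
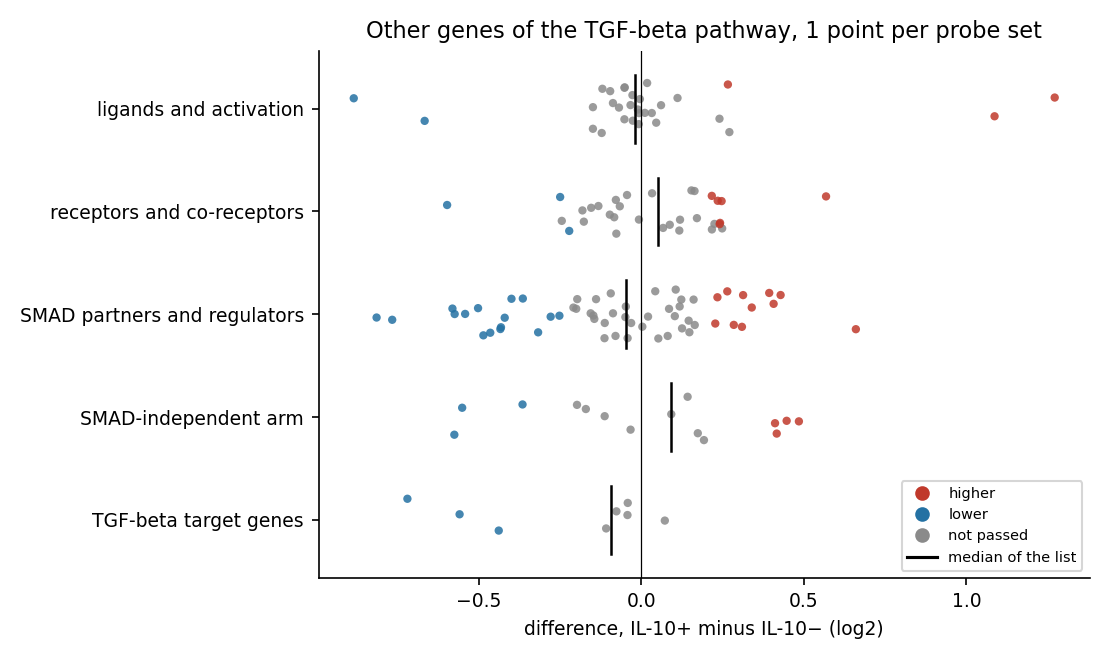
Differences between groups (IL-10+ minus IL-10−, log2, horizontal axis) of the 143 probe sets of other pathway genes in 5 lists, 1 point per probe set, coloured by call, with the median of each list as a vertical bar. The medians of the lists lie between -0.09 and 0.09, the 2 points furthest right are Itgav probe sets at 1.27 and 1.09, and the point furthest left is Itgb8 at -0.88.

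The genes whose values over the 4 arrays ran closest to those of the member probe sets furthest from 0 were found by the Euclidean distance of values centred on their own mean. Laptm5 (distance 0.0142), Chd4 (0.0621) and Sel1l (0.0665) were closest to Tgfbr1 at 1420894_at, and their differences between groups were 0.96, 0.97 and 0.95. Spib (0.0166), Pex6 (0.0197) and Pcif1 (0.0216) were closest to Nrp1 at 1457198_at, and their differences were -0.81, -0.83 and -0.81. These distances rest on 4 arrays and are a description.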

How the data were processed

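RNA of 2 IL-10+ and 2 IL-10− samples was hybridised to Affymetrix mouse genome arrays. The deposited values were normalized by the authors by variance stabilization with Bioconductor packages, and how probes were summarised into probe sets is not given in the sources used here. The deposited values were read as log2: the highest is 14.42, a 16-bit scanner ends at 16 on the log2 scale and at 11.09 in natural logs. The largest differences over all probe sets were 4.36 and -5.47. As log2 neither reaches the largest fold change that the study's methods state. As natural logs the increase comes close to it and the decrease exceeds it. The log base is thus not settled by these values. Variance stabilization compresses the differences of dim probe sets.

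The 64 control probe sets were left out. The other 45037 were fitted with R 4.3.3 and limma 3.58.1 (two-sided moderated test from lmFit and eBayes, Benjamini-Hochberg over all), with 2 residual and 5.44 prior degrees of freedom. An exact permutation test of 2 against 2 arrays cannot go below p = 0.333. The fit was tested on simulated data. Replicates correlated at 0.998 (IL-10+) and 0.996 (IL-10−). Arrays have no sequencing depth, so the precision is limited by their number.

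Gene symbols are those of GEO's platform annotation, some of which may be outdated: it gives 1 gene for 34945 probe sets and several for 932, which were not used, and does not list 9160. Matching gene identifiers to RefSeq (GRCm38.p6) changed 0 symbols. Promoter windows are from RefSeq, and Python 3.11.15 and matplotlib 3.10.9 were used for them and the figures.

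The members, the lists and the tests were chosen with earlier results of these data known. All members were named with every probe set, other pathway genes that passed by size of the difference (up to 4 per list and direction), Il10, the control probe sets, and the 3 nearest genes of the member probe sets furthest from 0. Furin, Smad1, Tgfb2, Cdkn2b, Tgfbi and the probe sets that did not pass, as well as the further calls of genes already named, were added after their values were seen. The alternatives were quantile normalization, median centring, the probe sets at or above the median, a trend or robust prior, each array left out, no x or s suffixes, a stricter adjusted p of 0.01, natural logs, and the mean over a gene's probe sets. The mean of the T cell and Treg markers without the Cd4 probe set furthest from 0 was added after seeing the data.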

Additional observations from a re-analysis of the deposited data

Results flagged for a closer look

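The control transcripts with a poly-A tail, which enter no comparison between the groups, gave signals at their 5' probe sets that were higher in the IL-10+ arrays by 1.22 on the log2 scale (median of 4 transcripts). They are added to the RNA before labelling and do not come from the cells. Their 3' probe sets differed by 0.04.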

How the results depend on the processing

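Of the 23 member probe sets, 14 kept their direction and their side of the threshold under all alternatives other than the mean over a gene's probe sets. Of these, 3 lay below the median and were not part of the alternative that kept the brighter probe sets. The sign turned at Smad2 1442062_at and Smad3 1450471_at, neither of which passed in any fit, to -0.0065 and -0.031 with quantile normalization and to -0.0076 and -0.033 with median centring. The mean over a gene's probe sets had the opposite sign at these (-0.015 and -0.15) and at 4 that had passed, with 0.46 for Tgfbr1 at 1420895_at, -0.23 for Smad4 at 1422485_at, -0.10 for Tgfbr2 at 1425444_a_at and -0.15 for Smad3 at 1450472_s_at. Leaving out 1 array at a time gave 5 to 7 member probe sets higher (6 with all arrays) and 5 to 10 lower (10), 0 to 1 past the methods' threshold (0), and 11 to 27 pathway probe sets higher (24) and 22 to 32 lower (27). The 5 lower member probe sets were those without IL-10+ replicate 1 and the 11 higher pathway ones those without IL-10+ replicate 2, and the lone array left in a group is assumed to vary like the other group. Over all probe sets there were 4301 higher and 4676 lower without IL-10+ replicate 1, and 3994 and 4955 without replicate 2. With probe sets at or above the median alone, 3 member probe sets were higher, since the dim ones were left out. Pathway probe sets higher in IL-10+ cells fell to 14 with median centring and to 12 at an adjusted p under 0.01. Were the values natural logs, 4 member probe sets would pass the methods' threshold, since a 2-fold change is then a smaller difference. After quantile normalization Nrp1 at 1418084_at (adjusted p = 0.0513) and 1448943_at (0.138) and Smad3 at 1450472_s_at (0.0659) did not pass, nor did the last with median centring (0.0622), nor 1448943_at with a trend in the prior (0.0505). No paired analysis was possible because the groups share no replicate number.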
